A study of Drosophila melanogaster with 6 samples.

Results

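The 10 genes followed here belong to the sex determination and dosage compensation pathways of Drosophila melanogaster. They were measured in whole adult flies in which a UAS transgene for an antimicrobial peptide was switched on by a driver, and in flies with the transgene alone. The genes were chosen by name: Sxl, tra, tra2, dsx and fru, which set somatic sex, and msl-1, msl-2, mle, roX1 and roX2, whose products act on the male X chromosome. Of these 10 genes, 8 had at least 1 probe set annotated to that gene alone, 17 probe sets in all, out of 18769 probe sets and 11982 genes on the array. The RNAs roX1 and roX2 were not matched to a probe set and were not analysed here. All 17 probe sets lay above the background level on all 6 arrays, which was taken from control probe sets for Bacillus genes.

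The control group was the UAS-AMP stock, not crossed to a driver, and the other group was the da-GAL4 x UAS-AMP cross, in which the promoter of daughterless (da) drives GAL4 in most tissues. Each group had 3 samples, and a sample pooled 25 male and 25 female whole adults and was read on its own Affymetrix Drosophila Genome 2.0 array. The labels give neither the peptide nor the age of the flies, and the cross also carried chromosomes of the driver stock, so a difference belongs to the cross as a whole. Driver-only flies were not analysed here. Defining genes of flight muscle (Act88F, TpnC4), gut (Jon65Aiii), neurons (elav), glia (repo) and haemocytes (Hml) were above background on all arrays. The fat body genes Fbp1 and Lsp2 varied widely: Fbp1 lay at background on control replicate 3 (34.4) and cross replicate 1 (77.1) and read 489.4 to 3180.4 on the others, and Lsp2 was lowest on the same arrays, at 429.3 and 633.5, with a highest signal of 6174.1. The flight muscle genes were also lowest on control replicate 3 and cross replicate 1. Act88F read 44846.2 and 62991.7 on these arrays and 99190.3 to 129772.2 on the others. TpnC4 read 20069.8 and 27523.1 against 35322.0 to 64379.5. In whole-fly RNA, fewer cells of a type and less RNA per cell cannot be told apart.

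In Drosophila, the number of X chromosomes decides whether the RNA-binding protein Sex-lethal (Sxl) is made. In females Sxl directs the splicing of tra, and Tra with Tra2 directs the splicing of dsx and fru, so that females and males make different proteins from the same genes. Sxl also blocks production of Msl-2 in females. In males Msl-2 joins Msl-1, Msl-3, Mle, Mof and a roX RNA in the MSL complex, which coats the single male X and raises its transcription. Most of this regulation acts through splicing and translation. The positions of the probe sets within the transcripts were not used here, so male and female splice forms were not separated and each value is a total signal over both sexes.

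No probe set of the 8 genes passed the test for a difference between the cross and the control. With limma and a constant prior variance, 0 of 17 probe sets passed an adjusted p of 0.05, as did 0.0% of all probe sets, and 1 of 17 had an unadjusted p under 0.05, against 11.0% of all probe sets. A second fit, called the trended fit from here on, used a prior variance that followed the signal and was also estimated robustly. It called 0.783% of all probe sets and 0 of 17, with 2 at an unadjusted p under 0.05 (12.5% of all). Taking 1 probe set a gene, the brightest, 4 genes were higher and 4 lower in the cross, with a median log2 difference of -0.06, against -0.002 for all genes, of which 50.2% were lower. None of these 8 had an unadjusted p under 0.05 with the constant prior, against 10.5% of all genes. This depended on the choice of probe set. With the probe sets of a gene averaged, dsx had a log2 difference of -0.41, with an unadjusted limma p of 0.0352 and an adjusted p of 0.365. Over all 17 probe sets 12 were lower, against 54.0% of all, but 12 of the 17 belong to Sxl, dsx and fru and share their gene with others. The 3 arrays of one group lay wholly apart from those of the other in 2 of 17 probe sets, both lower in the cross, against 18.5% of all probe sets in either direction and 12.8% in that direction.

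**Figure D1:**
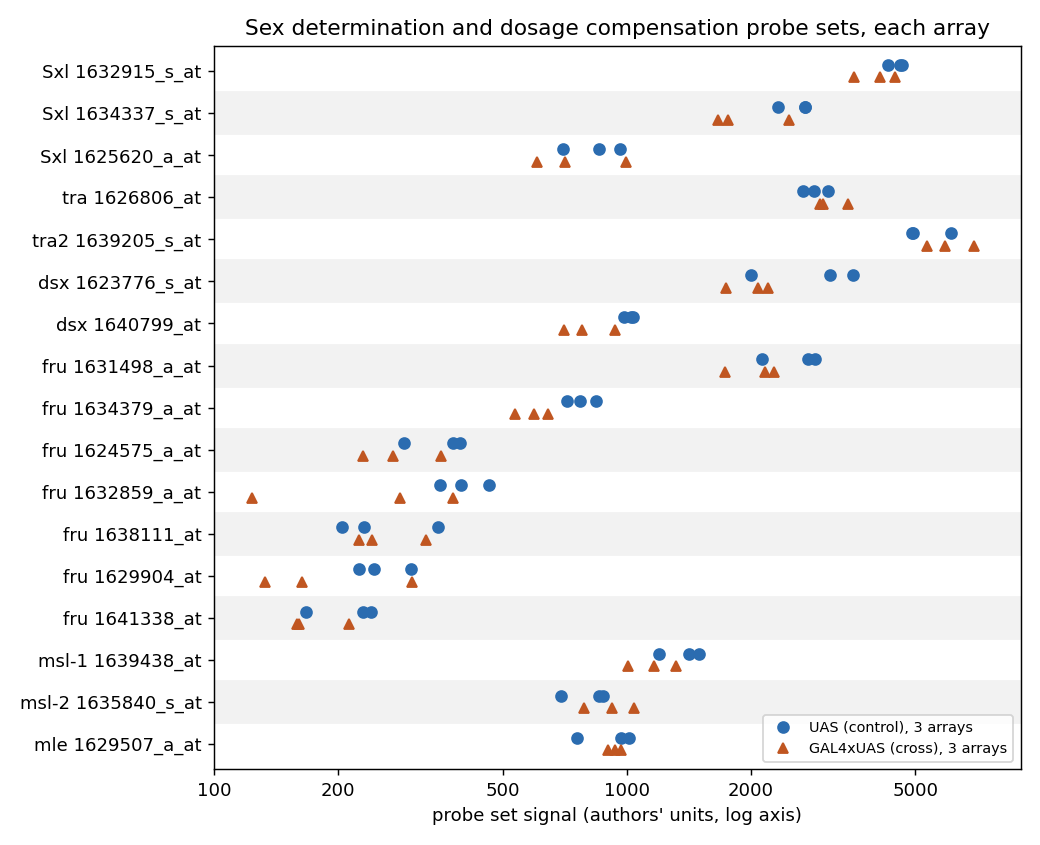
Signal of each of the 17 probe sets (horizontal log axis, in the units of the deposited values) on the 3 control arrays (blue circles) and the 3 arrays of the cross (orange triangles). The groups overlap in all but 2 probe sets, dsx 1640799_at and fru 1634379_a_at, in which the cross lies lower.

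Sxl, the switch gene at the top of the pathway and the only X-linked member measured, had 3 probe sets, all with a lower mean in the cross and none past the test. The brightest, 1632915_s_at, read 4640.5, 4293.7 and 4585.0 in the control and 4457.1, 3558.5 and 4108.7 in the cross. Only cross replicate 1 lay within the control range. Its log2 difference was -0.16 (95% interval -0.51 to 0.19, limma adjusted p = 0.693). The probe set 1634337_s_at read 2707.1, 2323.4 and 2707.9 against 2478.4, 1761.1 and 1664.4, 1.33-fold lower (log2 difference -0.41, interval -0.91 to 0.09, limma adjusted p = 0.525). Cross replicates 2 and 3 were below all controls and cross replicate 1 was among them. The dimmest, 1625620_a_at, read 965.2, 857.4 and 699.5 against 995.0, 605.4 and 706.7, and the groups overlapped widely. Cross replicate 2 had the lowest signal in 2 of the 3 Sxl probe sets.

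The same array stood apart in genes of the reproductive organs. With each gene centred on its mean over the 6 arrays, the median of 22 male germline genes was 0.65 on the log2 scale in cross replicate 2 and between -0.24 and 0.14 on the other 5 arrays, and that of 20 accessory gland and ejaculatory duct genes was 0.54 against -0.32 to 0.13. For 22 ovary and eggshell genes it was -0.51 in cross replicate 2, the lowest of the 6. It was -0.22 in cross replicate 1 and 0.42, the highest, in cross replicate 3, against -0.19 to 0.38 in the controls. Between the groups, 18 of 22 male germline and 18 of 20 accessory gland genes had a higher mean in the cross, and 17 of 22 ovary genes a lower one. Without cross replicate 2 these counts were 10, 13 and 10, and without cross replicate 3 they were 19, 19 and 18. Without cross replicate 3, 9 of the 22 ovary genes had an unadjusted limma p under 0.05, against 10.8% of all probe sets. With all arrays 2 did, and without cross replicate 2 only 1 did, each against 11.0% of all. Of these 3 lists 1 gene passed, and only in the trended fit: Dup99B, which encodes a seminal fluid peptide of the ejaculatory duct. It read 18553.5, 13874.0 and 16246.9 in the control and 28258.2, 42949.3 and 31527.0 in the cross, 2.09-fold higher with groups apart. Its limma adjusted p was 0.214 with the constant prior and 0.0322 in the trended fit, and its log2 difference of 1.06 was 0.89 without cross replicate 2. Without this array the log2 differences of the 3 Sxl probe sets were -0.07, -0.34 and 0.01. Leaving out the lowest array must raise the mean of the cross, and this array was the lowest in 2 of the 3. Without cross replicate 3 the differences were -0.18, -0.30 and -0.10, and without cross replicate 1 they were -0.24, -0.59 and -0.35. The part of male and female tissue content in the Sxl signals was not tested.

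tra and tra2, the splicing regulators that act together below Sxl, were measured by 1 probe set each. tra read 3079.6, 2668.9 and 2849.8 in the control and 3443.3, 2986.5 and 2938.1 in the cross, with only cross replicate 1 outside the control range. Its log2 difference of 0.12 had an interval of -0.22 to 0.47, which spans 0.858-fold to 1.38-fold (limma adjusted p = 0.755). For tra2 the signals were 4918.8, 4935.8 and 6098.6 against 6925.5, 5353.0 and 5909.7. Here too cross replicate 1 was the highest of all and the groups overlapped (log2 difference 0.19, interval -0.23 to 0.61, limma adjusted p = 0.701).

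dsx encodes the DM-domain transcription factors that carry out most of somatic sexual differentiation. Its brighter probe set, 1623776_s_at, read 3104.4, 3541.4 and 1996.2 in the control and 2075.0, 1739.5 and 2201.3 in the cross. Control replicates 1 and 2 were high, whereas control replicate 3 lay among the arrays of the cross. The 1.40-fold lower mean (log2 difference -0.49, interval -1.13 to 0.15) did not pass (limma adjusted p = 0.553). The second probe set, 1640799_at, read 1033.1, 1022.0 and 987.1 in the control, and all 3 arrays of the cross were lower, at 702.8, 938.0 and 777.9. That is 1.27-fold (log2 difference -0.34, interval -0.72 to 0.04, limma adjusted p = 0.497). The 2 probe sets thus had the same sign, but cross replicate 2 was the lowest array in the first and the highest of the cross in the second.

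fru, which encodes BTB zinc finger factors and in males directs courtship circuits, had 7 probe sets, of which 6 had a lower mean in the cross and 1 a higher one. The probe set 1634379_a_at read 841.2, 770.1 and 716.3 in the control and 535.0, 644.4 and 597.1 in the cross. It was 1.31-fold lower with groups apart, and its limma adjusted p was 0.409. It was the 1 member probe set with an unadjusted p under 0.05 with the constant prior, but not in the trended fit, where Sxl 1634337_s_at and dsx 1623776_s_at were under that value instead. Its arrays varied little, with a residual SD of 0.13 on the log2 scale against a median of 0.29 for probe sets of like signal. The brightest fru probe set, 1631498_a_at, read 2858.5, 2753.6 and 2130.5 against 2275.9, 2158.6 and 1731.4, a log2 difference of -0.33 (interval -0.80 to 0.15, limma adjusted p = 0.591). Control replicate 3 was again the low control and lay below 2 arrays of the cross.

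The other 5 fru probe sets were dim, with group means between 177.4 and 404.0, and none had groups apart. Among them 1632859_a_at had the widest spread, reading 395.6, 464.4 and 352.0 in the control and 123.8, 379.7 and 281.8 in the cross. Cross replicate 1 alone was far below the rest, and the log2 difference of -0.76 became -0.29 without it and -1.10 without cross replicate 2. The probe set 1638111_at, with the higher mean, read 348.5, 231.3 and 203.9 against 225.0, 326.8 and 241.3 and so showed no separation (log2 difference 0.04). In the remaining 3 the differences were -0.32, -0.44 and -0.25, with intervals that included 0. That of -0.44, in 1629904_at, became -0.20 without cross replicate 1 and -0.78 without cross replicate 2. Control replicate 1 was the highest array in 4 of the 7 fru probe sets, and cross replicate 1 the lowest in 3.

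Among the MSL complex genes, msl-1 encodes the scaffold subunit. It read 1418.2, 1198.1 and 1492.9 in the control and 1314.7, 1006.0 and 1165.1 in the cross, with 2 of the 3 arrays of the cross below all controls (log2 difference -0.24, interval -0.66 to 0.18, limma adjusted p = 0.640). msl-2 encodes the RING finger subunit whose presence in males allows the complex to form. Its signals were 694.2, 875.7 and 857.6 against 1040.2, 919.4 and 787.0, with a log2 difference of 0.18 (interval -0.26 to 0.61, limma adjusted p = 0.727). Cross replicates 1 and 2 were above all controls and cross replicate 3 was within their range. mle encodes the helicase that remodels the roX RNAs. Its 3 arrays of the cross, 934.6, 899.6 and 967.9, all lay within the control range of 757.6 to 1010.4, and its interval of -0.35 to 0.44 corresponds to 0.783-fold to 1.36-fold.

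**Figure D2:**
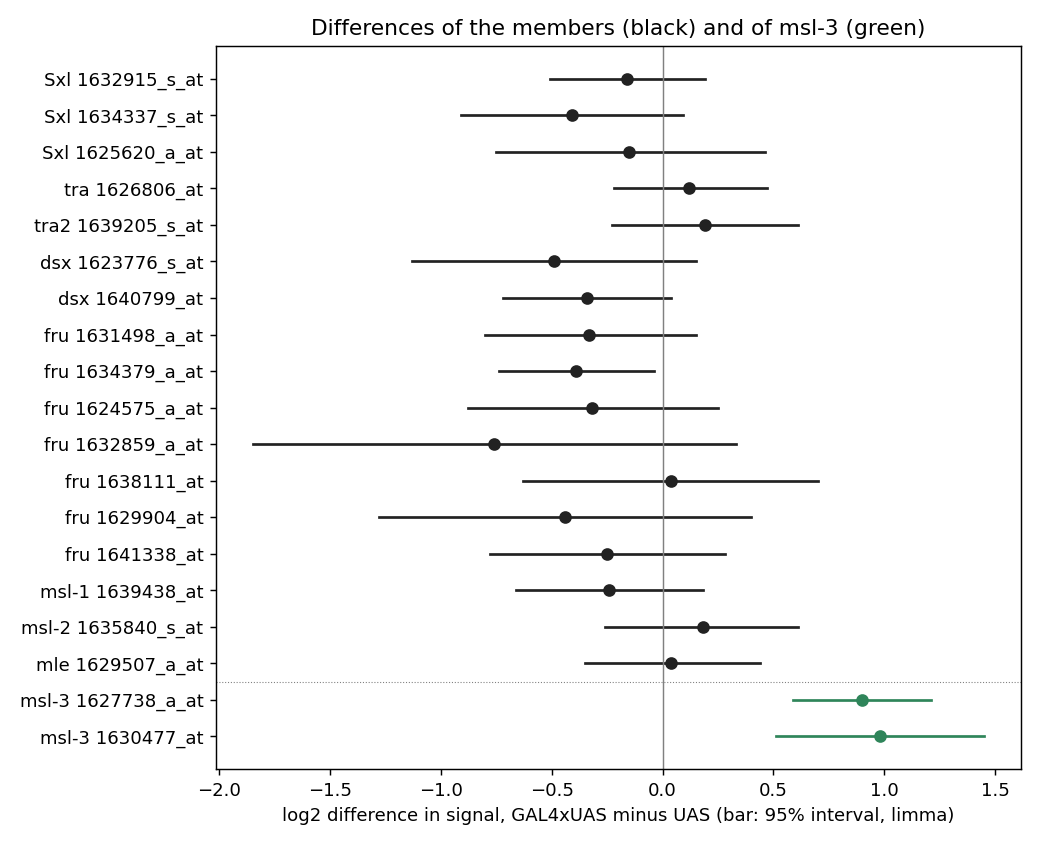
Log2 difference in signal, cross minus control, with its 95% interval from limma, for the 17 member probe sets (black) and the 2 probe sets of msl-3 (green). The interval of fru 1634379_a_at and those of both msl-3 probe sets leave out 0, before any adjustment.

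A list of 16 other genes linked to the MSL complex or to Mof, of which 14 were measured, held the 1 gene of the 4 pathway lists that passed in the trended fit. This was msl-3, which encodes the chromodomain subunit of the MSL complex that reads a histone mark of active genes. Its brighter probe set, 1627738_a_at, read 820.0, 811.1 and 903.1 in the control and 1597.2, 1489.9 and 1645.3 in the cross, 845 ± 50.7 against 1577 ± 79.6 (SD, n = 3 each). All 3 arrays of the cross lay above all controls, by 1.87-fold (log2 difference 0.90, interval 0.59 to 1.21). The limma adjusted p was 0.135 with the constant prior and 0.0427 in the trended fit, which called 0.868% of all genes, and ranged from 0.0373 to 0.461 over all settings. The second msl-3 probe set, 1630477_at, read 589.8, 504.8 and 673.3 against 1238.3, 963.6 and 1287.7, 1.97-fold higher with groups apart. Its adjusted p was 0.195 with the constant prior and 0.0818 in the trended fit with limma. Both probe sets read the same RNA samples, so the second is no independent replicate.

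In the rest of that list no gene passed either fit. Of the 14 genes, msl-3 included, 4 were higher and 10 lower (median log2 difference -0.06, against -0.002 for all genes), and the groups were apart in 2 upward and 3 downward, against 19.8% of all genes in either direction. JIL-1, a histone H3 kinase enriched on the male X, read 588.7, 686.0 and 633.9 in the control and 507.3, 422.9 and 507.6 in the cross, 1.33-fold lower with groups apart (limma adjusted p = 0.398). nsl1, a subunit of the second complex that holds Mof, was 1.19-fold lower, also with groups apart (limma adjusted p = 0.519). mof, the acetyltransferase of the complex, read 956.4, 1024.9 and 1117.1 against 1253.8, 936.6 and 913.1 and its groups overlapped (log2 difference -0.01, interval -0.45 to 0.43).

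**Figure D3:**
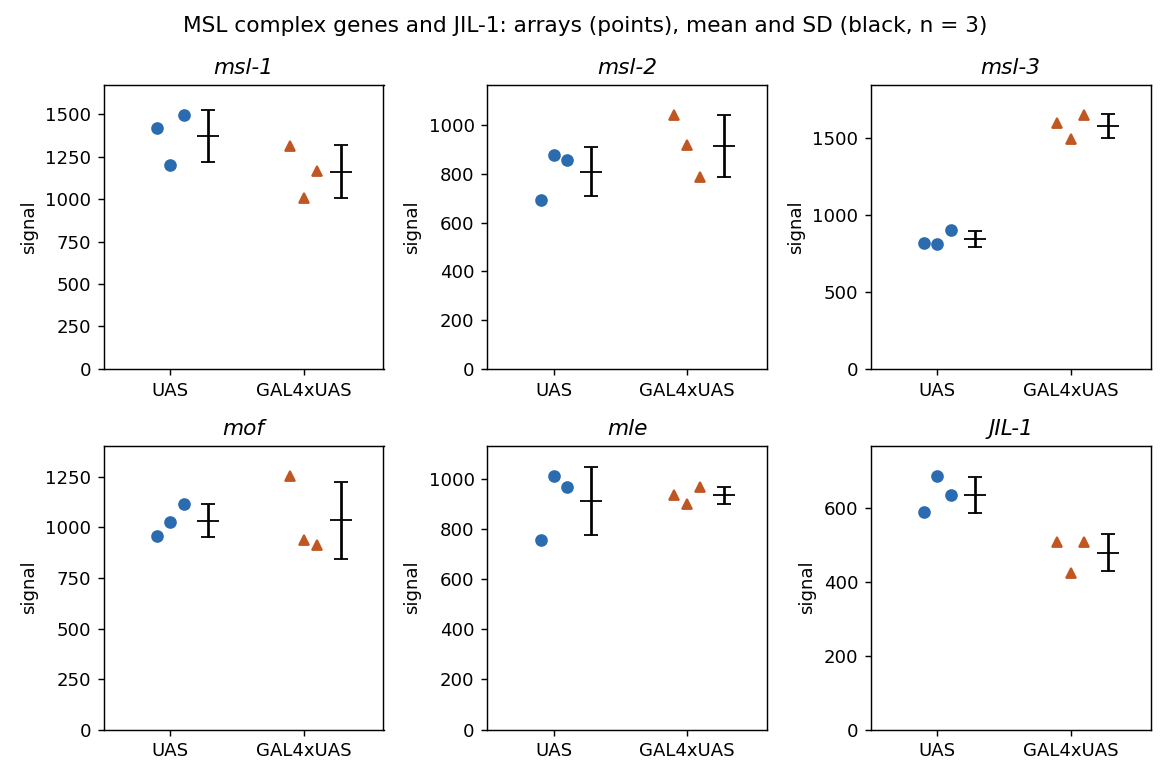
Signals of the protein subunits of the MSL complex and of JIL-1 on each array (points, linear axis from 0), with mean and SD in black (n = 3 in each group); each gene is shown by its brightest probe set. The cross and the control do not overlap in msl-3, which is higher in the cross, or in JIL-1, which is lower, and overlap in msl-1, msl-2, mof and mle.

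The other pathway lists held no gene past either fit. Of 12 measured partners of Sxl, Tra and Dsx splicing, including subunits of the enzyme that writes m6A on Sxl RNA, 5 were higher and 7 lower (median -0.08), with groups apart in 4, all downward, against 13.1% of all genes in that direction. They included the m6A writer subunits nito, 1.20-fold lower (control 3544 ± 74.9, cross 2963 ± 59.8), and Flacc, 1.38-fold lower (control 1870 ± 257, cross 1379 ± 329; SD, n = 3 each). Their limma adjusted p values were 0.486 and 0.548. pps, a partner of the splicing factor Snf, was 1.19-fold lower. Of 7 measured genes of X chromosome counting and early Sxl control in the embryo, 3 were higher and 4 lower. They include both activators and repressors, and only 4 of the 7 were above background on all arrays. Among these 7, gro, a co-repressor, was 1.15-fold lower with groups apart. The dim genes dpn and upd1 had log2 differences of -0.80 and -0.77 with intervals of -2.28 to 0.67 and -3.16 to 1.62. The gene da, from which the driver takes its promoter and which also activates Sxl, had a log2 difference of 0.06 (interval -0.32 to 0.44).

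Genes under Dsx or with sex-biased somatic expression gave no common shift, with 6 of 12 higher and 6 lower (median 0.01). Of the 12, 10 were above background on all arrays, and dsf, counted as higher, was at background on all 6. Groups were apart in 2, both downward, against 13.1% of all genes in that direction. The female genes Yp1, Yp2 and Yp3, which encode yolk proteins and are direct Dsx targets, had log2 differences of 0.07, -0.11 and 0.03. That of fit, a female-biased fat body peptide gene, was 0.14. For Yp1 the signals were 107160.9, 91308.7 and 94715.2 in the control and 83473.6, 103657.5 and 124104.6 in the cross, so the cross spanned the control range on both sides. fit read 5389.1, 4464.5 and 6324.0 against 6875.0, 4584.0 and 6452.4. The intervals of the 3 Yp genes and fit lay within -0.57 and 0.71. On control replicate 3 and cross replicate 1, where Fbp1 and Lsp2 were lowest, Yp1 read 94715.2 and 83473.6 and fit 6324.0 and 6875.0. Whether the Yp and fit values are related to the uneven Fbp1 and Lsp2 signals given above was not tested. Cyp4d21, a male-biased fat body enzyme under the sex determination pathway, read 1574.3, 1851.6 and 1661.2 against 1052.5, 1267.6 and 1218.2, 1.44-fold lower with groups apart and without passing (limma adjusted p = 0.300 with the constant prior, 0.206 in the trended fit). bab2, a Dsx-regulated pigmentation gene, was 1.26-fold lower, retn, an ARID factor of courtship circuits, 1.16-fold lower, and ix, the partner of female Dsx, 1.21-fold higher, none past the test.

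Because the MSL complex acts on the whole X chromosome, the X-linked genes were compared with those of the large autosomes as a description. The median log2 difference was -0.043 over 1869 X-linked genes and 0.007 over 9948 autosomal ones, a gap of -0.05. Array by array, the X median minus the autosomal median, with each gene centred on its mean, was 0.058, 0.023 and -0.001 in the control and -0.012, -0.051 and -0.015 in the cross. All 3 controls were above all 3 arrays of the cross, with control replicate 3 close to the nearest of them. Of X-linked genes 15.6% were lower in the cross with groups apart and 5.08% higher, against 12.6% and 7.07% of autosomal genes. The lowest value, -0.051, came from cross replicate 2, the array with the highest male germline and accessory gland signals. Without this array the gap between the median log2 differences of X-linked and autosomal genes, -0.05 with all arrays, was -0.056. The part of male and female tissue content in this gap was not tested.

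**Figure D4:**
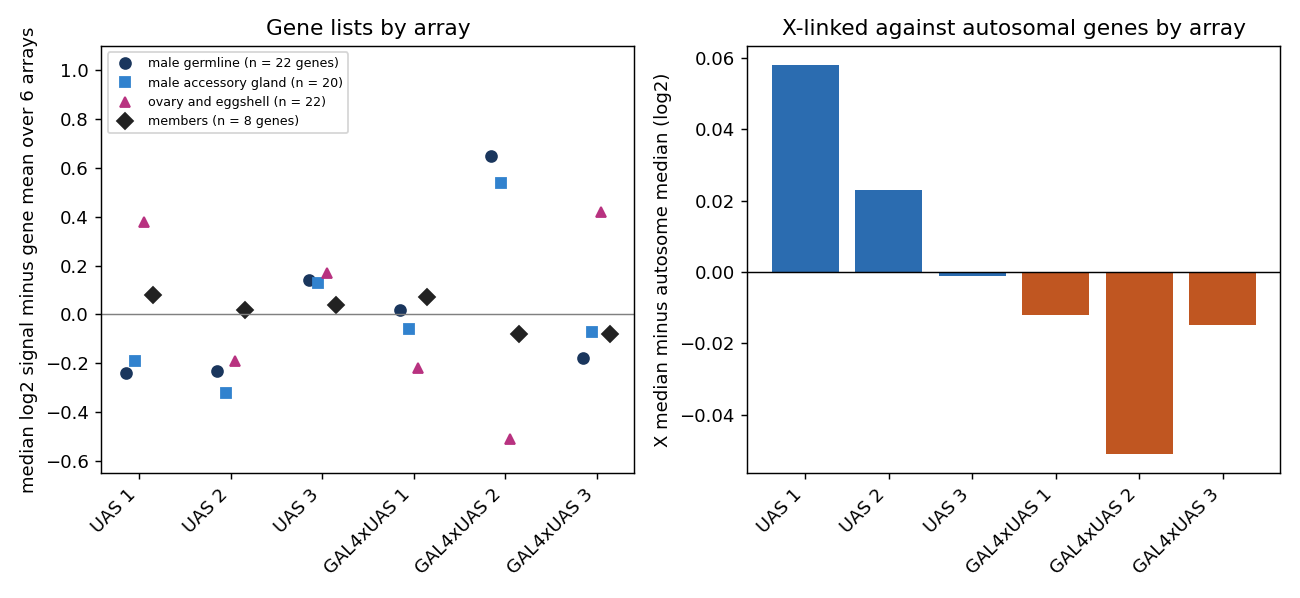
Left, for each array, the median over the genes of a list of log2 signal minus the gene's mean over all 6 arrays, for male germline, accessory gland, ovary and eggshell genes and for the 8 member genes; right, the same median for X-linked genes minus that for autosomal genes. Cross replicate 2 is high in both male lists (0.65 and 0.54) and low in the ovary list (-0.51), the members lie between -0.08 and 0.08 on all arrays, and the X minus autosome values run from 0.058 to -0.051.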

How the data were processed

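The values used are probe set intensities as the authors deposited them, linear, with 1 decimal and 1 column per sample. How they were summarised, background-corrected and scaled is not given in the sources used here. With the highest and lowest 2% trimmed, every array had a mean signal of 2500.1, so the values share a scale. Median signals over all probe sets ran from 752.3 to 889.2. Correlations between arrays were 0.946 to 0.958 within groups and 0.945 to 0.953 across them. Precision is limited by the number of arrays. Separate cultures are not stated for the samples of a group, so p-values measure how far these samples vary, and that variation may be technical only.

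After 183 control probe sets were set aside, log2(signal + 1) was tested with limma 3.58.1 in R 4.3.3, 2-sided, with Benjamini-Hochberg adjustment over all 18769 probe sets. Differences on this scale understate those of low signals. Genes were named from probe sets with 1 gene symbol (13647, of which 13544 matched the Release 6 gene table; 402 had several and 4720 none), and the brightest probe set stood for a gene. Chromosomes were taken from that table. Background was the 95th percentile of 27 Bacillus control probe sets on each array, 90.3 to 123.0. The members, lists and tests were chosen with earlier results of these data known. All member probe sets are described. Of the other lists, the rule was to name up to 3 genes with the smallest p, those past the test, and Yp1, Yp2, Yp3, fit, msl-3, mof, ix and da. The germline and accessory gland lists are given as medians and counts, with Dup99B alone named, and the Y-linked list as medians only. All 8 measured tissue genes are named, and the neighbours of msl-3 were named after their values were seen. Genes with a pattern like roX1 or roX2 were also to be named, which was not done because these were not matched. Replicate numbers are not stated to mark a shared batch, so the main fit had no replicate block. Deviations of same-numbered arrays correlated at -0.022, 0.001 and -0.097, and those of differently numbered arrays at -0.072 to 0.089. With so few arrays these values cannot exclude pairing. The fits were also run on simulated data, with independent noise on each array and added shifts larger than any member difference. Shifts shared by many genes of an array, as in cross replicate 2, were not simulated. The alternatives were quantile scaling, centring on the median, 16 as pseudocount, dropping the dim probe sets (the lowest of 3 equal parts by mean signal), a trended robust prior, a replicate block, each array left out, unequal group variances, and averaging the probe sets of a gene.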

Additional observations from a re-analysis of the deposited data

How the results depend on the processing

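No member probe set passed an adjusted p of 0.05 under any setting, and the lowest limma adjusted p of any was 0.235. Over all probe sets 112 passed without dim probe sets, 147 with the trended and robust prior and 1 with unequal group variances, against 0 in the other settings, the replicate block included. With the replicate block the log2 differences kept their values and no call on a member at an adjusted p of 0.05 changed, and 0 probe sets passed. Signs turned only with an array left out: Sxl 1625620_a_at to 0.01 without cross replicate 2, fru 1638111_at to -0.03, -0.12 and -0.13 without control replicates 2 and 3 and cross replicate 2, and mle to -0.08 without control replicate 1. The range with 1 array left out was -0.35 to 0.01 for that Sxl probe set, -0.13 to 0.26 for that fru probe set and -0.08 to 0.12 for mle. At an unadjusted p under 0.05 stood 0 member probe sets with quantile scaling, median centring or the replicate block, when fru 1634379_a_at no longer did, against 10.6%, 9.53% and 9.31% of all probe sets. With 1 array left out there were 0 to 4, against 7.38% to 13.0% of all, and the 4 came without cross replicate 2 (11.0% of all). Quantile scaling moved the median of all probe sets by 0.06, and the dim fru probe sets 1624575_a_at and 1641338_at to -0.13 and -0.05. Both msl-3 probe sets kept their sign, at 0.87 to 0.95 and 0.87 to 1.11, and the brighter one also passed without dim probe sets. Dup99B ran from 0.89 to 1.19 and passed in the trended fit alone. List medians moved as follows. That of male germline genes, 0.17 with all arrays, ran from -0.02 without cross replicate 2 to 0.44 without cross replicate 3. For accessory gland genes, 0.24 became 0.07 without cross replicate 2 and 0.38 without control replicate 3. For the tissue genes, -0.13 became -0.20 to 0.06 with 1 array left out. For genes of X chromosome counting, -0.20 became 0.04 without dim probe sets, and -0.24 to 0.05 with 1 array left out. For Y-linked genes, of which only 2 of 7 were above background on all arrays, -0.26 became -0.06 with quantile scaling and 0.18 without dim probe sets, and -0.33 to 0.10 with 1 array left out. That of ovary and eggshell genes ran from -0.62 without cross replicate 3 to 0.01 without cross replicate 2, and the X minus autosome gap from -0.078 without control replicate 3 to -0.045. The cause was not tested.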

Other observations

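On chromosome arm 3L, the 4 genes on each side of msl-3 in the Release 6 gene order, chosen after the msl-3 values were seen, were all measured. Of these 8 neighbours 7 were lower in the cross and 1 higher and 0 passed limma in either fit, with 2 at an unadjusted p under 0.05, against 50.2% of all genes lower and 10.5% at such a p. The nearest on one side, form3, read 4178.2, 4468.9 and 3143.0 in the control and 2814.2, 3455.9 and 2764.5 in the cross, and the nearest on the other, BBS1, lay in the background range on all but 1 array. Cpr65Eb, Cpr65Ec and Acbp4 lay there on 2, 5 and 4 arrays, so the count of directions rests partly on signals near background. The 2 neighbours with an unadjusted p under 0.05 with the constant prior were the outermost on each side, Cpr65Ea and Acbp3. Cpr65Ea, named as a cuticular protein gene, read 319.2, 102.5 and 593.8 in the control and 32.2, 52.9 and 49.8 in the cross. It was the 1 neighbour with groups apart, against 13.1% of all genes apart downward, but all 3 arrays of the cross lay at background. Acbp3, a member of the acyl-CoA binding protein family, read 13472.8, 12980.3 and 9565.8 against 3526.5, 4067.9 and 10207.7, with cross replicate 3 among the controls.

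On the small chromosome 4, 43 of 65 measured genes (66.2%) were lower in the cross, with a median log2 difference of -0.093, and 13 of them (20.0%) had groups apart downward and 1 (1.54%) upward. On the large autosomes 49.0% of genes were lower, with groups apart downward in 12.6% and upward in 7.07%.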
